A study of Caenorhabditis elegans with 36 samples.

Results

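The srh and sri genes are families of serpentine chemoreceptor genes of Caenorhabditis elegans. All genes whose symbol on the array's platform annotation begins with srh- or sri- followed by a number were taken, which gave 260 genes (202 srh and 58 sri) of 16378 named genes. The study asked, stage by stage, which mRNAs are held by the microRNA-induced silencing complex (miRISC). For this it used immunoprecipitation (IP) of AIN-2::GFP, a tagged GW182-family protein of that complex. Each of 18 whole-animal lysates gave an IP, made with a monoclonal antibody to GFP, and an input, which is the total RNA of that lysate. The 36 samples analysed here are the channels of arrays read in the dyes Cy3 and Cy5.

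All animals came from 1 integrated, single-copy AIN-2::GFP strain kept at 20 °C on HB101 bacteria, so every group carries the transgene. No IP from untagged animals was analysed here. The Egg group (4 lysates) held purified eggs frozen directly. The feeding time before harvest was 4 hours for L1 (4 lysates), 21 for L2 (3), 30 for L3 (4) and 42 for L4 (3), and over 80% of the animals of a sample were at the named stage. Per the labels, each replicate was cultured and harvested on its own. In these whole-animal samples, fewer cells of a type and less RNA per cell cannot be told apart.

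Serpentine receptors are G protein coupled receptors that cross the membrane several times. The nematode genome holds many families of them, and srh and sri belong to the group named after the str family, together with srd and srj. Where members of these families have been studied, they are mostly expressed in a few ciliated chemosensory neurons of the head and tail, and they are thought to detect odorants, tastants and pheromones. In the account below each srh and sri gene is therefore described as a receptor of its family, without a ligand or a role of its own.

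Precision is limited by the signal over background of the arrays and by their number. A gene counted as above noise in a sample when any of its probes exceeded 3 times the noise of that column, where the noise is the root mean square of the values below 0. Over all named genes, 55.3% to 75.4% were above noise in an input and 33.2% to 74.1% in an IP. The noise itself ranged from 0.0029 to 0.0186 deposited units in the inputs and from 0.00299 to 0.114 in the IPs. The 4 lysates with the noisiest IP were L3 replicate 1, L4 replicate 3, Egg replicate 1 and L2 replicate 1. The pan-neuronal markers with a probe (10 of the 18 listed) were above noise in 90.56% of all gene and input pairs, and 9 of the 10 in 18 or more samples, so neuronal mRNA was measured in these lysates.

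Most srh and sri genes were at or near array noise. In an input, 28.5% to 49.6% of the 260 genes were above noise (median 41.3%), and in an IP 12.7% to 50.8% (median 34%). The shares for all named genes had medians of 69.3% and 58.7%. The families therefore lay below the named genes in every sample, and the plot of shares by stage shows the gap in each.

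**Figure D1:**
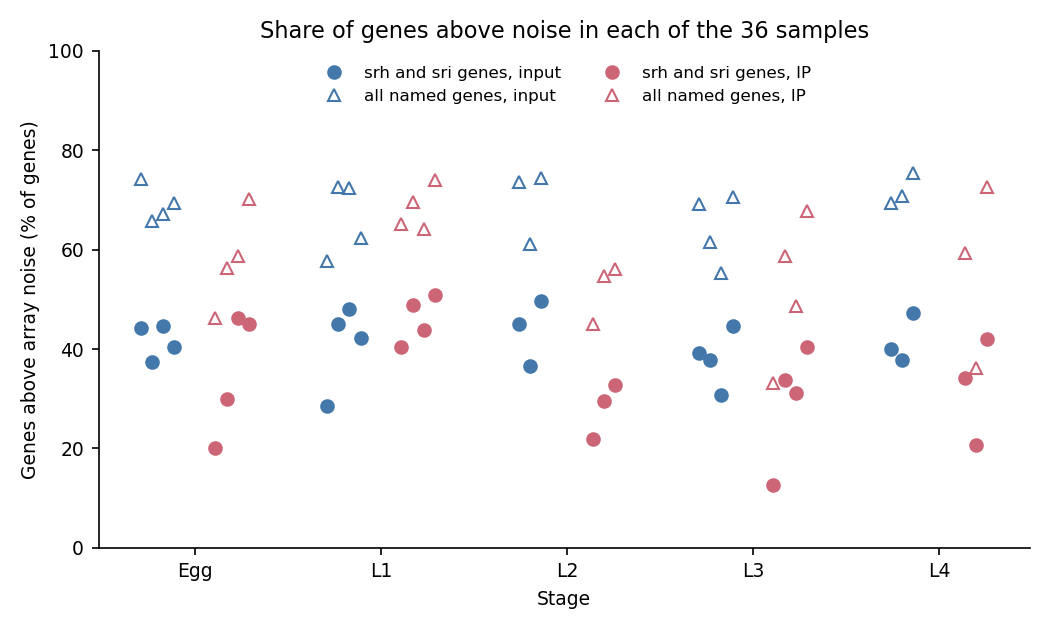
Percent of genes above array noise in each of the 36 samples, by stage, for inputs (blue) and IPs (red). Filled circles are the 260 srh and sri genes and open triangles all 16378 named genes. The receptor genes lie at 12.7% to 50.8% of genes, below the named genes of the same sample.

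The share above noise in the inputs was much alike at the 5 stages. It was 41.6% ± 3.46 (SD, n = 4) in Egg, 41% ± 8.66 (n = 4) in L1, 43.7% ± 6.63 (n = 3) in L2, 38.1% ± 5.7 (n = 4) in L3 and 41.7% ± 5.02 (n = 3) in L4. In the IPs it was 35.3% ± 12.6 in Egg, 46.0% ± 4.73 in L1, 28.1% ± 5.55 in L2, 29.5% ± 11.9 in L3 and 32.3% ± 10.7 in L4. The L1 IPs (40.4% to 50.8%) lay above the L2 IPs (21.9% to 32.7%) without overlap, and the ranges of the other stages overlapped both. Over all named genes the shares were 64.1% to 74.1% in the L1 IPs and 44.96% to 56.1% in the L2 IPs, so they too did not overlap.

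Single genes ranged from never to always above noise. Of the 260 genes, 18 were above noise in none of the 36 samples, 117 in 1 to 9, 29 in 10 to 17, 84 in 18 to 35 and 12 in all 36. The median gene was above noise in 9 samples, against 27 for all named genes. In 18 or more of the 36 samples, 36.92% of the receptor genes and 64.75% of the named genes were above noise. Of the 12 genes above noise throughout, 11 were srh genes and 1, sri-30, was an sri gene. More genes were above noise in more inputs than IPs (134) than the other way round (75), and 51 had equal numbers. A tilt to the inputs was not particular to the receptor genes. Over all named genes the median share above noise was 69.3% in an input and 58.7% in an IP. The median noise was 0.00535 deposited units in the inputs and 0.014 in the IPs. The same count per gene is not given here for the named genes.

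**Figure D2:**
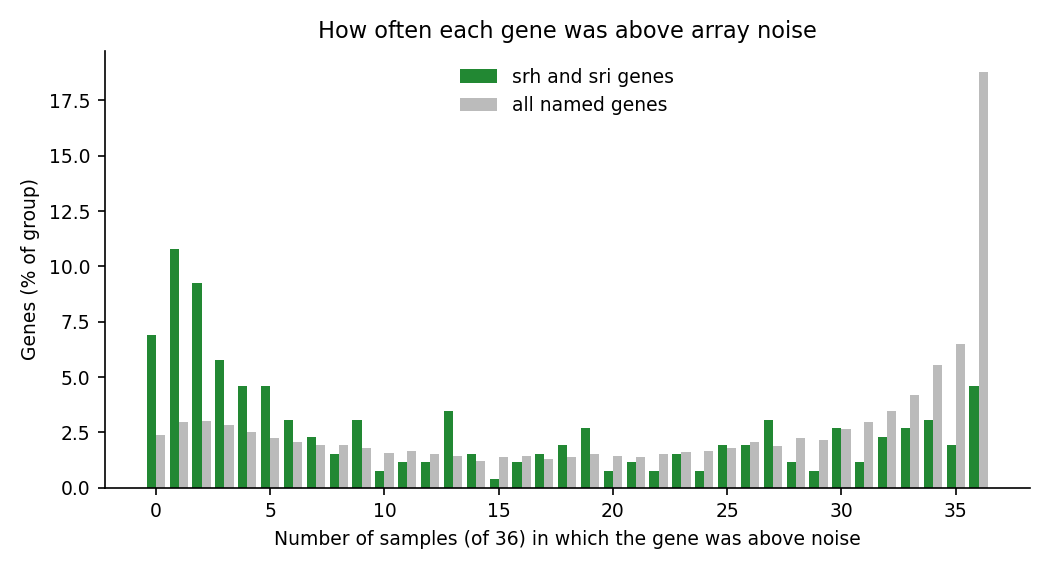
Percent of genes (vertical axis) by the number of samples, 0 to 36, in which the gene was above array noise (horizontal axis). Green bars are the 260 srh and sri genes and grey bars all named genes. The receptor genes gather at the low end, with 18 genes at 0, and 12 of them reach 36.

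Some receptor genes were above noise in all samples of 1 group and in none of another, at shares on both sides of those of the named genes. At no stage was one above noise in every IP and no input, a pattern that 0.00611% (L4) to 0.055% (L1) of the named genes showed. The reverse pattern, above noise in every input and no IP, held for 9 genes at L2 (3.46% of the families, against 3.6% of the named genes) and for 3 at L4 (1.15% against 0.763%). It held for 0 genes at Egg, L1 and L3, against 0.427%, 0.0122% and 0.22% of the named genes. The 3 at L4 were srh-200, srh-252 and sri-5, and sri-5 was also among the 9 at L2 (these and the next genes were chosen after their values were seen). Between stages, srh-15 was above noise in every L1 input and no Egg input, srh-234, srh-252 and srh-278 in every L2 input and no L1 input, and sri-65 in every L4 input and no L3 input. The shares of the families were 0.385%, 1.15% and 0.385%, against 0.507%, 0.696% and 1.18% of the named genes. The opposite switch was seen for srh-73 and sri-65, above noise in every L2 input and no L3 input (0.769% against 0.177%). In the inputs, sri-57 was the only receptor gene above noise in every sample of 1 stage and in no input of another stage, which is 0.385% of the families against 0.293% of the named genes. Its deposited Egg input values were 0.172, 0.106, 0.0727 and 0.296, and its 14 other inputs lay between -0.0226 and 0.0165. It was above noise in 2 of 4 Egg IPs and 1 of 4 L1 IPs, and it had too few values to be tested.

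For the tests, values of 0 or less were set to missing, and log2 of the others was quantile normalized over the 36 columns. A gene was tested where every stage had at least 2 lysates with a value in both samples. That kept 129 of the 260 receptor genes (49.62%; 28 of them sri genes), against 73.64% of the named genes. Of the 96 genes above noise in 18 or more samples, 94 were tested, and of the other 164 genes, 35. The 131 genes not tested are described by the counts above alone. A difference between IP and input is given throughout as log2 IP minus log2 input of the same lysate, so positive values are higher in the IP.

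The IP was set against the input to ask which receptor mRNAs were enriched or depleted with the complex. At the mean of the 5 stages 23 of the 129 tested genes passed the test, 13 of them higher and 10 lower in the IP, against a background of 44.4% of all 15732 features tested (19.2% higher and 25.2% lower). Among the higher genes srh-34, at 1.58 ± 0.12 (SE), had the smallest adjusted p, and srh-233 at -1.88 ± 0.29 and srh-211 at -1.36 ± 0.11 were among the lowest. The median difference of the tested receptor genes was 0.10, beside -0.09 for all features, and 76 of the 129 lay above 0. Of these calls the srh family had 10 higher and 8 lower, and the sri family 3 higher and 2 lower of its 28 tested genes.

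The test was limma's moderated test on the 18 differences with a term per stage and for the dye, with Benjamini-Hochberg adjustment over all 15732 features and a threshold of 0.05. The members' share of calls lay below the background, as did their share above noise, and the part of signal over noise in this was not tested. Among the 94 genes above noise in 18 or more samples, 8 were higher and 10 lower, and among the other 35, 5 were higher and 0 lower. The split over all features above noise in fewer than 18 samples is not given here. The 5 and 0 can therefore not be read as particular to the receptor genes. In a fit of the features above noise in at least 18 samples alone, 22 of 94 receptor genes passed (9 higher and 13 lower) against a background of 52.1% (22.0% higher and 30.1% lower). The split into higher and lower moved with the scaling: it was 33 and 11 on the values as deposited and 22 and 11 after loess within each lysate. On the values as deposited the median of all features was 0.135, in place of -0.09.

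**Figure D3:**
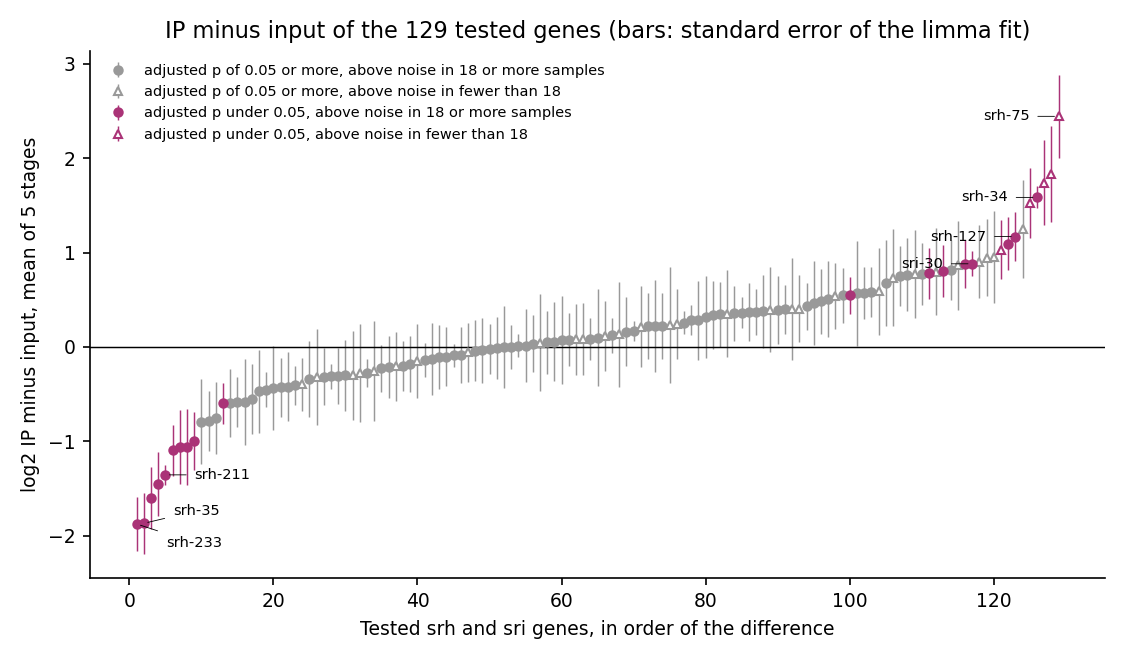
Log2 IP minus input at the mean of the 5 stages (vertical axis) for the 129 tested srh and sri genes in order of the difference (horizontal axis), with the standard error of the limma fit as bars. Purple marks the 23 genes with an adjusted p under 0.05, and open triangles the genes above noise in fewer than 18 samples. Most genes lie within 1 log2 unit of 0, and the 5 purple triangles are all on the higher side. No share over all features above noise in fewer than 18 samples is given beside them.

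The receptor gene srh-34 was higher in the IP in all 18 lysates. At Egg the differences were 0.28, 1.00, 1.14 and 1.30, and at L1 0.35, 0.88, 0.92 and 0.64. The L2 lysates gave 4.03, 3.06 and 3.56. All 3 L2 values lay above those of every other stage. The L3 lysates gave 1.83, 1.91, 2.13 and 1.45, and those of L4 1.94, 1.33 and 0.48. The L3 values lay above all those of Egg and L1, and the L4 values overlapped those of the 3 stages. At the mean of the stages limma's adjusted p was 7.3e-10, and the direction and the call held under all 29 alternatives run, with values from 1.36 to 1.73. The gene was above noise in all 36 samples.

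The L2 excess of srh-34 lay in the IP level and not in the input. On the normalized log2 scale its inputs were -0.26, 0.19 and -0.34 at L2, within the range of the Egg and L1 inputs (-0.63 to 0.57), while the L2 IPs were 3.76, 3.25 and 3.21. The IPs of the 15 other lysates lay between -0.27 and 1.73. The fitted differences were 3.48 ± 0.27 at L2 (limma's adjusted p 4.1e-08), 1.73 ± 0.24 at L3 (2.4e-05), 1.18 ± 0.27 at L4 (0.0035), 0.83 ± 0.24 at Egg (0.0156) and 0.69 ± 0.23 at L1 (0.0348).

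**Figure D4:**
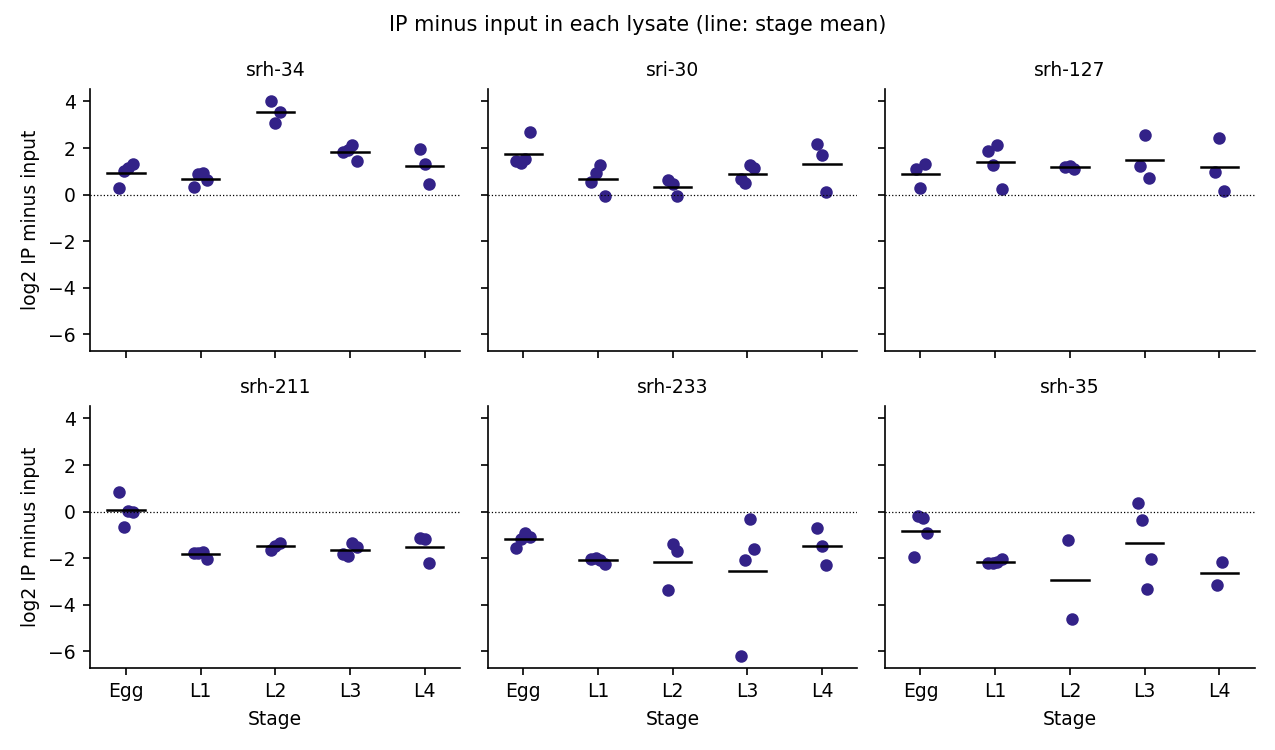
Log2 IP minus input in each lysate (points, vertical axis) by stage (horizontal axis) for 6 srh and sri genes, with the stage mean as a line and 0 dotted. The points of srh-34 at L2 lie between 3.06 and 4.03, above its other stages, and those of srh-211 lie at -1.15 or lower at L1 to L4 and between -0.64 and 0.86 at Egg.

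The sri receptor gene sri-30 was also above noise in all 36 samples and higher in the IP in 16 of 18 lysates. Its differences at Egg were 1.44, 1.37, 1.51 and 2.68, and at L4 2.16, 1.68 and 0.14. The L1 lysates gave 0.54, 0.93, 1.29 and -0.05, those of L2 0.62, 0.46 and -0.04, and those of L3 0.66, 0.51, 1.27 and 1.13. The Egg values lay above those of L1, L2 and L3, and the L4 values overlapped every stage. The fitted mean was 0.88 ± 0.13 (limma's adjusted p 1.6e-05), with 1.57 ± 0.27 at Egg (0.000223) and 1.21 ± 0.31 at L4 (0.0081). The L4 difference was 0.91 without L4 replicate 1 (adjusted p 0.0854), and with centred columns neither stage passed (0.0716 at Egg and 0.383 at L4). The 2 negative values came from lysates whose IP was labelled with Cy5 (L1 replicate 11) and Cy3 (L2 replicate 3).

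Besides srh-34, the called gene that was higher in every lysate with a value was srh-127, which had values in 16 lysates. Its differences ran from 0.15 to 2.58 with a fitted mean of 1.17 ± 0.26 (limma's adjusted p 0.0012). It was above noise in 13 inputs and 15 IPs. The stage ranges overlapped throughout, from 0.29 to 1.33 at Egg, 0.23 to 2.15 at L1, 1.10 to 1.25 at L2, 0.72 to 2.58 at L3 and 0.15 to 2.43 at L4.

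Some other genes called higher rest on inputs mostly at noise, where a fold is at best a lower bound. Such a bound sets the mean of the brighter samples against the lowest signal counted as above noise in each dim array. It holds only where every brighter sample is above noise. For srh-75, the fitted mean was 2.44 ± 0.44 (limma's adjusted p 0.000206) with 14 of 15 lysates above 0, but it was above noise in 2 of 18 inputs and 10 of 18 IPs. The mean of its IPs with a value was 2.24-fold over that lowest input signal at Egg, 2.72-fold at L3 and 2.56-fold at L4. At these stages 1 of 4, 3 of 4 and 2 of 3 IPs were above noise, so the folds are not lower bounds. At L4 its differences were 4.62, 5.20 and 3.68, and at L2, where neither sample of any lysate was above noise, they were 0.35, 0.89 and 1.78.

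The receptor gene srh-33 showed the same limit. It was above noise in 1 of 18 inputs and 6 of 18 IPs, 3 of which were Egg IPs. Its Egg differences in the 3 lysates with a value were 3.99, 4.01 and 2.70. The mean of those 3 Egg IPs was 2.77-fold over the lowest input signal counted as above noise. The other Egg IP had no value, so this is not a lower bound for the stage. The fitted Egg difference was 3.57 ± 0.93 (limma's adjusted p 0.0119), and without Egg replicate 2 the adjusted p was 0.115. At Egg sri-26 passed the test at 2.64 ± 0.87 (adjusted p 0.0433 by limma), but neither its inputs nor its IPs were above noise there, so no fold is given. The sri-26 call was lost without Egg replicate 1 (0.0731), 2 (0.43) or 5 (0.112).

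At L1, 3 further receptor genes were among the highest called. The gene sri-63 differed by 2.08, 0.61, 1.70 and 5.37, srh-308 by 1.46, 1.65, 3.09 and 3.46 and srh-209 by 1.39, 2.54, 2.12 and 2.02. All 4 L1 IPs of each gene were above noise, against 2, 1 and 1 of the 4 L1 inputs. The fitted differences were 2.44 ± 0.62, 2.42 ± 0.69 and 2.02 ± 0.59 (limma's adjusted p 0.0075, 0.0152 and 0.0186). None of the 3 calls held without L1 replicate 11, where the adjusted p values were 0.099, 0.114 and 0.0698.

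Among the genes lower in the IP, srh-233 was below 0 in all 18 lysates. Its differences were -1.58, -1.18, -0.92 and -1.08 at Egg and -2.02, -1.97, -2.09 and -2.27 at L1, so every L1 value lay below every Egg value. The L2 lysates gave -3.38, -1.38 and -1.69, those of L3 -6.19, -2.06, -0.32 and -1.59, and those of L4 -0.72, -1.49 and -2.27. The values of these 3 stages overlapped both Egg and L1. The lowest, at L3 replicate 1, came from the noisiest IP and is the only 1 of 36 samples in which srh-233 was not above noise. The fitted mean was -1.88 ± 0.29 (limma's adjusted p 2.1e-05), and it lay between -2.08 and -1.53 under all 29 alternatives, each still a call.

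The gene srh-211 was lower in the IP at each larval stage and not at Egg. At Egg the differences were 0.86, -0.64, 0.02 and 0.00. The L1 lysates gave -1.76, -1.78, -1.72 and -2.03, and those of L2 -1.65, -1.46 and -1.35. The L3 lysates gave -1.81, -1.89, -1.34 and -1.53, and those of L4 -1.15, -1.19 and -2.19. All 14 larval values lay below the 4 Egg values, and the larval stages overlapped each other except that the L1 values lay below those of L2. The fitted differences were -1.82 ± 0.21 at L1 (limma's adjusted p 2.0e-06), -1.56 ± 0.25 at L2 (0.000213), -1.76 ± 0.22 at L3 (8.2e-06) and -1.59 ± 0.25 at L4 (0.000114).

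The genes srh-35 and sri-5 were above noise mostly in the inputs. For srh-35 these were 17 of 18 inputs and 8 of 18 IPs, and its differences at L1 were -2.19, -2.23, -2.15 and -2.05. At Egg they were -1.93, -0.19, -0.29 and -0.91, all above the L1 values. Its fitted mean was -1.87 ± 0.32 (limma's adjusted p 0.000109), with 15 of 16 lysates below 0. At L2, where every input and no IP was above noise, its input was at least 1.93-fold over the IP. It was called by limma at L1 (adjusted p 0.0133), L2 (0.0237) and L4 (0.0346). The L1 call did not hold without L1 replicate 2 (0.0818) or L1 replicate 11 (0.0738). The L2 and L4 calls of srh-35 rest on 2 lysates each, with differences of -1.24 and -4.62 at L2 and -3.14 and -2.16 at L4. Without any 1 of these lysates the gene could not be tested. Of 24 alternatives, 2 lost the L2 call (limma's adjusted p up to 0.159) and 4 the L4 call (up to 0.457). For sri-5 the counts were 16 inputs and 3 IPs, the fitted mean was -1.46 ± 0.34 (limma's adjusted p 0.0019), and its L2 differences were -1.58, -2.52 and -3.99 (adjusted p 0.0155, and 0.143 without L2 replicate 3). The input of sri-5 was at least 1.80-fold over the IP at L2 and at least 1.05-fold at L4.

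Also called at the mean of the stages were srh-62, lower with 14 of 16 lysates below 0 and an adjusted p of 0.0125 by limma, and sri-32, higher at 0.88 ± 0.25 (0.0075) with 14 of 17 above 0. At L4 srh-62 differed by -0.86, -4.58 and -0.90, and without L4 replicate 3, which holds the lowest value, its L4 difference was -0.88 with an adjusted p of 0.389. At L4 sri-32 differed by 2.83, 3.12 and 0.67, and its adjusted p was 0.0648 without L4 replicate 1 and 0.0863 without L4 replicate 3. The remaining 10 called genes, 5 higher by 0.55 to 1.83 and 5 lower by -1.60 to -0.60, are in the plot of ranked differences. One of them was above noise in a single sample (srh-79, chosen here after its values were seen), so its call rests on values at noise.

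The 5 stages taken one by one gave few calls. At Egg 7 of the 129 genes were higher and 1 lower, against backgrounds of 10.4% and 11.8% of all features. At L1 5 were higher and 4 lower (13.1% and 9.83%), and at L2 1 was higher and 5 lower (6.26% and 9.99%). At L3 2 were higher and 4 lower (8.99% and 12.1%), and at L4 4 were higher and 3 lower (8.21% and 11.2%). Taken both ways the backgrounds were 22.3%, 22.9%, 16.3%, 21.1% and 19.4% from Egg to L4, and the 6 to 9 receptor genes called at a stage are a smaller share of the 129. The median differences were 0.34, 0.26, -0.19, 0.07 and 0.17 from Egg to L4, and those of all features were -0.04, 0.08, -0.28, -0.07 and -0.15.

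Further genes entered by stage. At L3 sri-65 was lower at -2.41 ± 0.69 (limma's adjusted p 0.0185), but none of its L3 inputs or IPs was above noise, so no fold is given. The call of sri-65 was lost under 7 of 27 alternatives, among them without L3 replicate 2 (0.12) and without L3 replicate 5 (0.0559). At L3 srh-95 was higher at 4.19 ± 1.0 (limma's adjusted p 0.0107) from 2 lysates, with differences of 1.79 and 6.59. The mean of the L3 IPs of srh-95 with a value was 1.48-fold over the lowest input signal counted as above noise. Only 1 of 4 IPs and 0 of 4 inputs were above noise, so this is not a lower bound. At the mean of the stages neither passed the test, with 0.77 ± 0.46 for srh-95 (adjusted p 0.203) and -0.78 ± 0.32 for sri-65 (0.0519, both by limma).

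Of the 10 genes above noise in the most samples, only srh-34, srh-211 and sri-30 passed the test at the mean of the stages. For the other 7 the fitted means were 0.01 ± 0.12 for srh-32, 0.17 ± 0.11 for srh-5, -0.45 ± 0.19 for srh-258, -0.09 ± 0.12 for srh-270, -0.27 ± 0.15 for srh-72, 0.26 ± 0.12 for srh-154 and -0.31 ± 0.13 for srh-179. None of these 7 passed the test at the mean (limma's adjusted p from 0.0555 to 0.948). Of 29 alternatives, 9 gave a call for srh-258, 7 for srh-179, 3 for srh-154, and 2 each for srh-5 and srh-72. For srh-32 and srh-270 0 did. At single stages srh-154 was higher at Egg, by 0.80 ± 0.25 with all 4 lysates above 0 (0.26 to 1.5), and srh-270 was lower at L2, by -0.98 ± 0.28 with all 3 below 0 (-1.18 to -0.66). Both stage calls are limma's, with adjusted p values of 0.0243 and 0.0213.

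The ratio of IP to input was then compared between the stages, to ask whether association with the complex changed during development. Of the 129 genes 2 passed the F test, srh-34 (limma's adjusted p 0.000575) and srh-211 (0.0062), against a background of 2.61% of all features, and 10 had an unadjusted p under 0.05. As given above, srh-34 was highest at L2, and srh-211 was near 0 at Egg and lower at every larval stage. Neither call held with the columns centred on their medians, where the adjusted p values were 0.292 and 0.397. The call of srh-211 also did not hold in the 12 lysates whose input title is spelled in 1 of the 2 ways used (0.26). For the other tested genes a difference of the ratio between stages was not detectable with these lysates.

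Total RNA was compared between stages to ask when the receptor mRNAs were present. Few receptor genes passed this test, and every step from one stage to the next that passed was a rise. For any difference between stages 5 of the 129 passed the F test (srh-211, srh-258, srh-15, sri-21 and sri-30), against a background of 25.1%. The sri-21 call was lost under 6 of 28 alternatives, among them without Egg replicate 1, 2 or 5 (limma's adjusted p 0.0792, 0.112 and 0.0747). For srh-258 it was lost under 2 of 28, and for srh-15 under 2 of 23. From Egg to L1, 6 genes were higher and 0 lower in the input, beside backgrounds of 11.2% and 11.5% (22.7% either way), and 16 had an unadjusted p under 0.05. From L1 to L2 and from L3 to L4 1 gene was higher each time, srh-211 in both, beside backgrounds of 1.81% (2.02% either way) and 0.839% (0.877% either way), and 0 genes were lower, beside 0.21% and 0.0381%. From L2 to L3 0 passed limma's test, beside a background of 0.0%, and 3 receptor genes and 801 of all features had an unadjusted p under 0.05. The median differences from stage to stage were 0.17, 0.02, -0.19 and -0.17, beside 0.01, 0.08, -0.19 and -0.02 for all features.

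The input of srh-211 rose from Egg to L4. Its normalized log2 levels were -1.75, -1.28, -2.58 and -2.87 at Egg, and 0.69, 0.21, 0.04 and 0.08 at L1. The levels reached 1.88, 2.02 and 1.87 in L2, then 2.38, 2.15, 2.03 and 1.92 in L3, and 3.78, 4.04 and 3.29 in L4. The ranges of L2 and L3 overlapped, and no other pair of stages did. The fitted steps were 2.32 ± 0.32 from Egg to L1 (limma's adjusted p 4.1e-05), 1.70 ± 0.34 to L2 (0.0101), 0.22 ± 0.34 to L3 (0.908) and 1.56 ± 0.34 to L4 (0.0337). The F test of srh-211 passed under all 28 alternatives run, while the step to L4 kept its call under 13 of 28, with adjusted p values up to 0.523. Among these, the step was 1.48 without L4 replicate 1 and 1.34 without L4 replicate 3 (adjusted p 0.193 and 0.263), and leaving out 1 lysate of L1, L2 or L3 ended the call in 8 further cases with adjusted p values of 0.0537 to 0.106.

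The IP of srh-211 was near its input at Egg and below it at each larval stage. Its IPs were -0.88, -1.93, -2.56 and -2.87 at Egg, and -1.06, -1.57, -1.69 and -1.95 at L1. The L4 IPs were 2.63, 2.84 and 1.10. From Egg to L1 the input ranges did not overlap, while the IP ranges did.

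**Figure D5:**
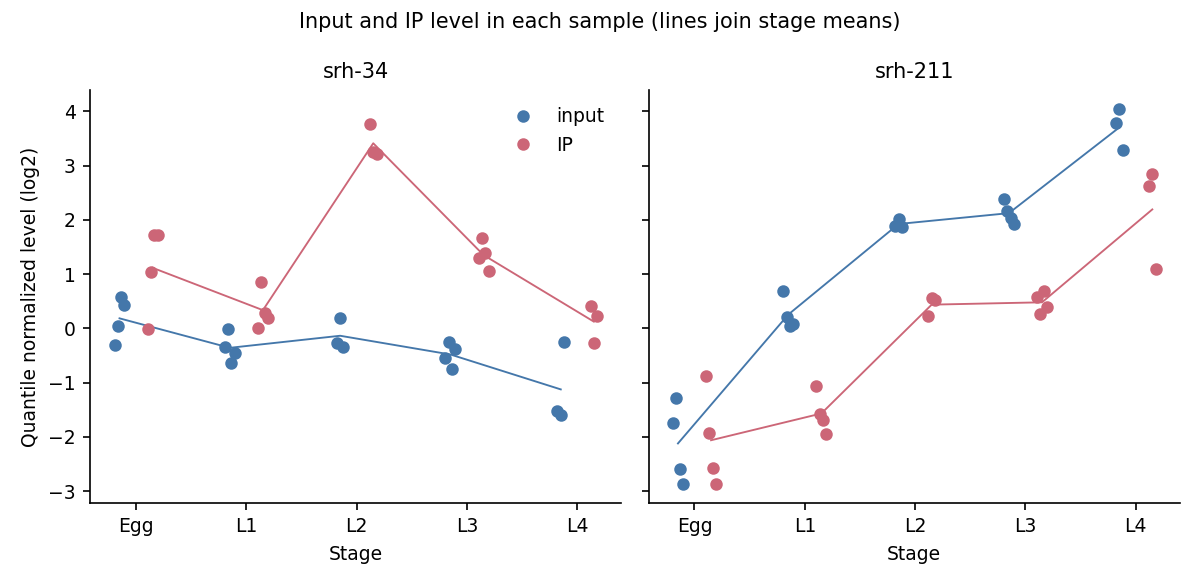
Quantile normalized log2 level (vertical axis) of srh-34 and srh-211 in each input (blue points) and IP (red points) by stage (horizontal axis), with lines through the stage means. The IP of srh-34 reaches 3.21 to 3.76 at L2 while its L2 inputs lie between -0.34 and 0.19, and the input of srh-211 climbs from -2.87 to 4.04 between Egg and L4 with the IP below it at the larval stages.

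The other receptor genes higher at L1 than at Egg were srh-15, srh-60, srh-266, sri-21 and srh-258. For srh-15 the inputs were -7.23, -7.25, -6.27 and -6.07 at Egg, none above noise, and -4.10, -4.25, -4.28 and -3.23 at L1, all above noise. That is a level at least 2.83-fold higher at L1 (limma's adjusted p 0.0022). The ranges of the groups did not overlap for srh-15, srh-60, srh-266 and sri-21, and they did for srh-258. The fitted steps were 2.39 ± 0.67 for srh-60 (limma's adjusted p 0.0145), 1.81 ± 0.63 for srh-266 (0.0456), 1.30 ± 0.42 for sri-21 (0.0336) and 1.05 ± 0.36 for srh-258 (0.0451). Without Egg replicate 2 srh-60 no longer passed (0.0711), and without it 2 genes in all were called in place of 6.

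Later stages added little to these. The input of srh-258 was -1.39 ± 0.71 (SD, n = 4) at Egg, -0.20 ± 0.23 (n = 4) at L1, 0.58 ± 0.25 (n = 3) at L2, 0.43 ± 0.37 (n = 4) at L3 and 0.77 ± 0.98 (n = 3) at L4. The input of sri-30 went the other way, from 0.22 ± 0.62 (SD) at Egg and 0.02 ± 0.34 at L1 to -0.38 ± 0.15 at L2, -0.62 ± 0.33 at L3 and -1.05 ± 0.54 at L4. Its F test passed narrowly (limma's adjusted p 0.0442) and kept its call under 8 of 28 alternatives, with adjusted p values from 0.0203 to 0.264. Of the 8 egg-stage marker genes tested, 3 were lower and 1 was higher in the L1 inputs than in the Egg inputs, beside backgrounds of 11.5% and 11.2%. Among those lower, nhr-2, an embryonic nuclear receptor gene, had a difference of -5.38 ± 0.78 (limma's adjusted p 0.000216). The markers were thus not all called the way of the label.

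Some receptor genes are neighbours in the genome. By the order of genes in the RefSeq annotation (assembly WBcel235), which matched 258 of the 260 genes and marks 6 of them as pseudogenes, 124 genes were next to another srh or sri gene, in 46 runs of 2 to 5 genes, and 134 stood alone. The members of a run differed in some cases and not in others. The run srh-33, srh-34 and srh-35 held a gene higher in the IP at noise level in the input (1.74 ± 0.45), one higher in every lysate (1.58 ± 0.12) and one lower (-1.87 ± 0.32), all called by limma. In the run sri-28 to sri-31 (4 genes), 3 genes were above noise in 18 or more samples, and in that of srh-20 to srh-23 (4 genes) none was. These neighbours are described, not tested.

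Paralogs of these families can share sequence, and the probe sequences were not analysed here, so a signal on 1 probe from several members could not be told apart, and cross-hybridisation was not tested. For 21 genes the array holds 2 or more probes, which gives 29 pairs. In 14 of the pairs only 1 probe was above noise in 18 or more samples. In the 8 pairs with both above noise that often, the mean difference between IP and input differed between the probes by 0.10 to 1.25 on the log2 scale. The probes of srh-60 gave -1.09 and 0.34, and they were above noise in 36 and 8 samples. For srh-60 the brighter probe alone gave a step of 2.29 from Egg to L1, beside 2.39 for the mean of the probes.

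The dye moved with the differences. The median difference of the receptor genes per lysate lay between -0.23 and 0.75 in the 12 lysates with a Cy3 IP (9 above 0) and between -0.41 and 0.36 in the 6 with a Cy5 IP (3 above 0). The fit holds a dye term, and without it 18 genes were higher and 9 lower at the mean. Of the 23 called genes, 22 had the fitted sign in the means of both dye orientations. The exception was sri-2, fitted at 1.09 ± 0.28 (limma's adjusted p 0.0034), which differed by -0.11 ± 1.14 (SD, n = 11) with a Cy3 IP and by 2.43 ± 0.65 (SD, n = 6) with a Cy5 IP (named after its values were seen). The part of the dye in the other differences was not tested.

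The related receptor families were also often at noise. In the inputs 41.05% of srh and sri gene and sample pairs were above noise, beside 41.77% for str, 38.44% for srd, 33.05% for srj and 35.66% for the other serpentine families. Of the tested genes, 16 of 102 str genes were called at the mean of the stages (10 higher and 6 lower), 8 of 26 srd genes (6 and 2) and 7 of 17 srj genes (7 and 0). The remaining serpentine families together gave 51 of 273 (31 and 20). Called either way, these were 15.69%, 30.77%, 41.18% and 18.68%, beside 44.4% of all features (19.2% higher and 25.2% lower). Medians were 0.15, 0.12, 0.58 and 0.23 in that order, beside 0.10 for srh and sri. No difference between the families was tested.

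Lists of signalling, transport, cilium and sensory neuron genes were set beside the receptors. Each has its count at the mean of the stages, and all stand against the background of 44.4%. A place on a list does not mean that the gene acts with a chemoreceptor. Of 17 tested G protein genes, which pass the signal from receptors inside the cell, 3 were higher and 4 lower. The G alpha gene gpa-12 was -1.66 ± 0.25 and gpa-13 -1.66 ± 0.37, lower in 18 of 18 and 16 of 16 lysates, and the G gamma gene gpc-2 was -1.21 ± 0.08, lower in 18 of 18. Of 10 genes for receptor folding and transport to cilia 2 were higher and 2 lower, and daf-25, which is needed for guanylate cyclases to reach cilia, was 1.97 ± 0.22, higher in 16 of 18. The median differences of the lists were 0.19 and -0.03.

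Of 18 tested guanylate cyclase, channel and signal regulator genes 3 were higher (arr-1, pde-2 and gcy-23, by 0.29 to 0.91) and 0 lower, with a median of 0.24. Of 20 tested genes of the list for cilium building 2 were higher and 2 lower (median 0.13). That list also holds che-14, a gene of the sensory organs' channel cells and not of the cilium itself. The difference of che-14 was 1.56 ± 0.27, higher in 16 of 18. Of 17 sensory neuron transcription factor genes 5 were higher and 0 lower (median 0.16), among them mef-2 at 1.67 ± 0.11, ttx-3, which specifies the AIY interneuron, at 1.24 ± 0.13 and die-1 at 1.18 ± 0.14. All limma calls of these lists are over all features, and the lists were not tested as lists. Of the 6 tested named receptors of other families, odr-10, the diacetyl receptor, among them, 0 passed at the mean, with differences from -0.07 to 0.82 and adjusted p values from 0.108 to 0.983.

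The marker lists held calls too. Of 9 tested pan-neuronal genes 2 were higher and 1 lower (median -0.04), with egl-21, a carboxypeptidase gene of neuropeptide processing, at 1.53 ± 0.10. Of 8 egg-stage genes 0 were higher and 3 lower (median -0.19). Of 16 sperm genes listed as markers of L4 animals, 1 was higher and 4 lower (median -0.55). The higher one was gsp-4, a sperm phosphatase gene, at 1.54 ± 0.13. Lower were msp-45, msp-49, msp-76 and msp-142, which encode major sperm proteins, with msp-76 at -1.18 ± 0.29 and the other 3 nearer to 0. Members of the msp family are near identical copies, and a probe may read several.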

How the data were processed

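RNA of 18 lysates was measured on arrays read in 2 dyes. The values are intensities that the authors deposited, 1 column per sample; judged from the deposited values they are background-subtracted, since some lie below 0, and scaled to a column mean near 1. The scanner, its software and the scaling are not given in the sources used here. Values of 0 or less were treated as missing, and log2 intensities were quantile normalized and averaged over the probes of a gene. A gene was tested where each stage had 2 or more lysates with both values (15732 of 22149 features). Noise was the root mean square of a column's values below 0, and 3 times that was the threshold.

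IP minus input was fitted per lysate with limma 3.58.1 in R 4.3.3, with a term per stage and for the dye and an intensity trend (12 residual and 7.46 prior degrees of freedom). The inputs were fitted alone in the same way (5.61 prior). Adjusted p values follow Benjamini-Hochberg at 0.05. The fits were tested on simulated data. Summaries used pandas 2.3.3 and numpy 2.4.6, and plots matplotlib 3.10.9, under Python 3.11.15. IP and input of a lysate pair by the labels, and their deviations from the group means correlated at 0.246 to 0.605. No 2 columns correlated above 0.973, and 0 columns had no sample.

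Genes were named by a rule: the 10 most often above noise, the called genes of extreme difference with 1 sign in every lysate, the leading genes of each F test and input step, and listed pathway genes changed over 2-fold. The members, lists and tests were chosen with earlier results of these data known. Other scalings, an offset for low values, a noise filter, single probes, dye and block terms, title spelling and leaving out lysates were tried as alternatives. Gene order came from RefSeq (WBcel235). Sequences were not used here.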

Additional observations from a re-analysis of the deposited data

Results flagged for a closer look

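One value stood far from the rest of its group. The IP minus input of sri-30 at Egg replicate 5 was 2.68 on the log2 scale, and the other 3 Egg lysates lay between 1.37 and 1.51. It was 1 of 34 groups of 4 lysates examined, and chance alone puts about 5% of such groups past this limit.

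The difference between IP and input itself differed between stages for 2 genes in limma's F test. For srh-34 the adjusted p was 0.000575, with L2 above all other stages, and for srh-211 it was 0.00617, with Egg above the larval stages. With columns centred on their medians neither passed (0.292 and 0.397).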

How the results depend on the processing

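The limits of these data are the low signal of the receptor genes and 3 or 4 lysates a stage. At 2 times the noise the median share above noise was 50.2% in the inputs and 46.0% in the IPs, and at 5 times it was 30.4% in the inputs. Counts of called genes moved by over 1.5 times as follows, and the cause was not tested. The number of receptor genes tested also moved with the setting. At the mean of the stages it was 129 in the main fit and 260 with the offset. It was 86 in the 12 lysates of 1 title spelling and 98 without the 4 noisiest IPs. The counts here and below are therefore not shares of 1 common number. No share over all features is given here for the settings in this paragraph. At the mean of the stages, in place of 13 higher, an offset of 0.1 gave 30 (all 260 genes tested), the deposited values 33, centring 20, loess 22, no replicate block 8, the 12 lysates of 1 title spelling 3 (and 5 lower in place of 10), and leaving out the 4 noisiest IPs, an alternative chosen after seeing the data, 21. For the ratio between stages, in place of 2, centring gave 0, and no replicate block and the 12 lysates 1 each. For the input between stages, in place of 5, the offset gave 11, the brightest probe 8, a replicate block 3, the 12 lysates 1 and leaving out the noisiest 2.

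Stage by stage, the offset gave 13 higher and 3 lower at Egg, 9 lower at L1, 3 higher at L2, 4 at L3 and 8 at L4. The deposited values gave 3 lower at Egg, 8 lower at L1, and 6 higher and 3 lower at L2. Centring gave 3 higher and 0 lower at Egg, loess 2 lower at Egg and 4 higher at L3, the noise filter 1 higher at L3, no dye term 0 lower at Egg and 4 higher at L3, and the brightest probe 5 lower at L4. Without the pairing of IP and input (no replicate block) Egg had 2 higher and 0 lower, L1 had 1 and 1, L2 had 1 lower, L3 had 1 and 2, and L4 had 2 and 1. In the 12 lysates Egg had 1 higher and 0 lower, L1 had 0 and 0, L2 had 2 lower, L3 had 1 higher, and L4 had 2 and 1. Without the noisiest IPs 8 were lower at L1 and 2, 4 and 7 higher at L2, L3 and L4. For the inputs, L1 over Egg gave 10 higher and 1 lower with the offset, 3 higher with the deposited values and with centring, 1 with the 12 lysates, and 3 higher and 1 lower without the noisiest. L2 over L1 gave 2 with centring and with no trend, and 0 with the deposited values, the 12 lysates, the replicate block and without the noisiest. L4 over L3 gave 0 with the deposited values, centring, the 12 lysates, no trend and without the noisiest, and 1 lower with the offset.

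With 1 lysate left out, the counts at the mean ranged from 10 to 17 higher and 6 to 13 lower, the ratio between stages stayed at 2, and the input between stages ranged from 2 to 7. Higher and lower ranged from 1 to 8 and 0 to 2 at Egg (lowest higher count without Egg replicate 2), 1 to 7 and 1 to 5 at L1 (without L1 replicates 10 and 11), 1 to 1 and 1 to 7 at L2 (without L2 replicate 3). They ranged from 1 to 3 and 3 to 6 for L3, and from 2 to 5 and 1 to 5 for L4. L1 over Egg ranged from 2 to 8, L4 over L3 from 0 to 1, and the median of the receptor genes from 0.04 to 0.18. None of the genes named by the rule changed sign in a comparison where it was called. Of those without a call at the mean, srh-32 was -0.0304 with the deposited values, -0.25 with centring, -0.0884 with the 12 lysates and between -0.0976 and 0.053 with 1 lysate left out (below 0 in 5 cases). With centring srh-5 was -0.107 and srh-154 -0.00405, and with loess srh-270 was 0.0288.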
